A study of Mus musculus with 16 samples.

Results

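The genes for the neurotrophins and their receptors were followed through 16 RNA sequencing libraries of mouse hippocampal cultures. The set holds 7 genes, chosen by name from the 55385 genes of each table, and all 7 were found under their Ensembl identifiers. They are the ligand genes Bdnf, Ntf3 and Ntf5, the Trk receptor genes Ntrk2 and Ntrk3, the p75 receptor gene Ngfr, and Sort1, which encodes sortilin.

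Primary hippocampal neurons from newborn C57Bl/6N mice had been infected with recombinant adeno-associated virus, which carried a short hairpin RNA driven by the U6 promoter and a GFP marker driven by the chicken beta-actin promoter. Every culture carried such a virus, with either Control-shRNA or an shRNA against Dnmt3a1, the long form of the DNA methyltransferase Dnmt3a (called 3a1sh in the labels). Cultures were left at baseline or treated for 4 h with bicuculline, a GABA-A receptor blocker that releases network firing from inhibition. The 4 groups (Control baseline, Control bicuculline, Dnmt3a1-shRNA baseline, Dnmt3a1-shRNA bicuculline) have 4 libraries each, described by the study as independent neuronal preparations. One control and one targeting hairpin were sequenced, so an effect of this hairpin on other RNAs and an effect of the lost Dnmt3a1 cannot be told apart.

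Neurotrophins are secreted growth factors that are made as larger precursors. The mature factors act on Trk receptor tyrosine kinases, with BDNF and NT-4 (the product of Ntf5) binding TrkB (Ntrk2) and NT-3 (Ntf3) binding mainly TrkC (Ntrk3), while the precursors bind p75 together with sortilin. In hippocampal neurons BDNF is known as an activity-dependent factor that is released at synapses and acts in plasticity. The Bdnf gene has several alternative first exons, each with its own promoter, which are spliced to a common coding exon.

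Both starts of Bdnf shown here were picked because one belongs to the longest annotated transcript, on which the length results below turn, and the other was the only start of the set with a TGACG motif. Bdnf (ENSMUSG00000048482.14) spans chr2:109674700-109727007 on the plus strand of GRCm38. The stretches end at the base before a RefSeq start and run 5′ to 3′, and capitals mark CpG dinucleotides, the sites that DNA methyltransferases modify. The first, chr2:109674450-109674699, precedes Bdnf-201, and the second, chr2:109692186-109692435, precedes Bdnf-209.
Bdnf-201 start: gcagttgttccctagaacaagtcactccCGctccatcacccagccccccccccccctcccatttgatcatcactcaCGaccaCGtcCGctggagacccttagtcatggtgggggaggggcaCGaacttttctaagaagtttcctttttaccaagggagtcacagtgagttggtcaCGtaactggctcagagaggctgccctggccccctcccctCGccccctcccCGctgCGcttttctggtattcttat
Bdnf-209 start: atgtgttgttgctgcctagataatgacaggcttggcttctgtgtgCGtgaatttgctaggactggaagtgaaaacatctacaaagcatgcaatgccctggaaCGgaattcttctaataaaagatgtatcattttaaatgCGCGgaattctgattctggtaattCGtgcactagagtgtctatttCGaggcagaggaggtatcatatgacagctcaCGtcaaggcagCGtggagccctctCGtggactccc
Each stretch holds 9 CpG dinucleotides, against a median of 6 over the 32851 starts of the RefSeq table (GRCm38.p6). That number lies between the quartiles over all starts, 2 and 16. The 11 starts of the set in that table belonged to Bdnf (7), Ntf3 (2), Ntrk2 (1) and Ngfr (1). In the 250 bases before each start, on both strands, TGACG (the core of a cAMP response element) was found in 1 of the 11, at position -35 of the Bdnf-209 start, and in 17.8% of all starts. The full palindrome TGACGTCA, which contains TGACG, was in 0 of the 11 and in 1.55% of all. TGANTCA (AP-1) was in 1 of the 11, at position -152 of Bdnf-206, and in 6.75% of all, and CACGTG (an E-box) was in 1 of the 11, at position -231 of an Ntf3 start, and in 6.02% of all. A match is a string of letters, not a measured binding site. DNA methylation was not measured in these libraries.

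Each library held 28912697 to 29586355 estimated counts, of which 2.73 to 6.60% came from mitochondrial genes. Dnmt3a checked the labels: it lay between 293 and 338 CPM (counts scaled to an effective library size by TMM) in the 8 Control-shRNA libraries and between 39.4 and 48.0 CPM in the 8 Dnmt3a1-shRNA libraries. Its log2 fold change was -2.81 ± 0.064 (SE) at baseline (adjusted p = 8.9e-15) and -2.85 ± 0.064 with bicuculline (adjusted p = 7.4e-15), although sums per gene cannot separate Dnmt3a1 from the shorter Dnmt3a2. General neuronal markers were abundant, at a summed 5853 to 6934 TPM (a share of all transcripts, corrected for length) in every library. The 8 astrocyte markers summed to 213 to 508 TPM, the 9 oligodendrocyte-lineage markers to 81.2 to 188 TPM with Sox10 near 0 (at most 0.019 TPM as a group mean), the 8 fibroblast and vessel markers to 37.0 to 91.6 TPM with Cldn5 near 0 (at most 0.067), and the 8 microglial markers to 2.76 to 8.59 TPM. In bulk RNA of this kind fewer cells of a type and less RNA per cell cannot be told apart.

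The set as a whole divided into a few abundant genes and a few rare ones. On the TPM scale, which is per transcript length and so allows genes to be compared, the means in Control baseline (± SD, n = 4) were 138 ± 16.02 for Ntrk2, 123 ± 6.15 for Sort1, 48.3 ± 5.53 for Ntrk3, 41.9 ± 10.4 for Bdnf, 8.50 ± 1.52 for Ntf3, 2.98 ± 0.914 for Ngfr and 0.295 ± 0.111 for Ntf5. In this order Ntrk2 and Sort1 overlapped, as did Ntrk3 and Bdnf, while the other neighbours did not. In Control bicuculline the order changed to Ntrk2 at 252 ± 18.0, Bdnf at 203 ± 34.03, Sort1 at 105 ± 4.25, Ntrk3 at 49.1 ± 5.17, Ntf3 at 3.43 ± 0.681, Ngfr at 2.62 ± 0.713 and Ntf5 at 0.124 ± 0.0919 TPM. There Ntrk2 and Bdnf overlapped, and so did Ntf3 and Ngfr. With Dnmt3a1-shRNA the same order of means held in bicuculline, at 275 ± 17.0 for Ntrk2 and 146 ± 12.5 for Bdnf, and these did not overlap.

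**Figure D1:**
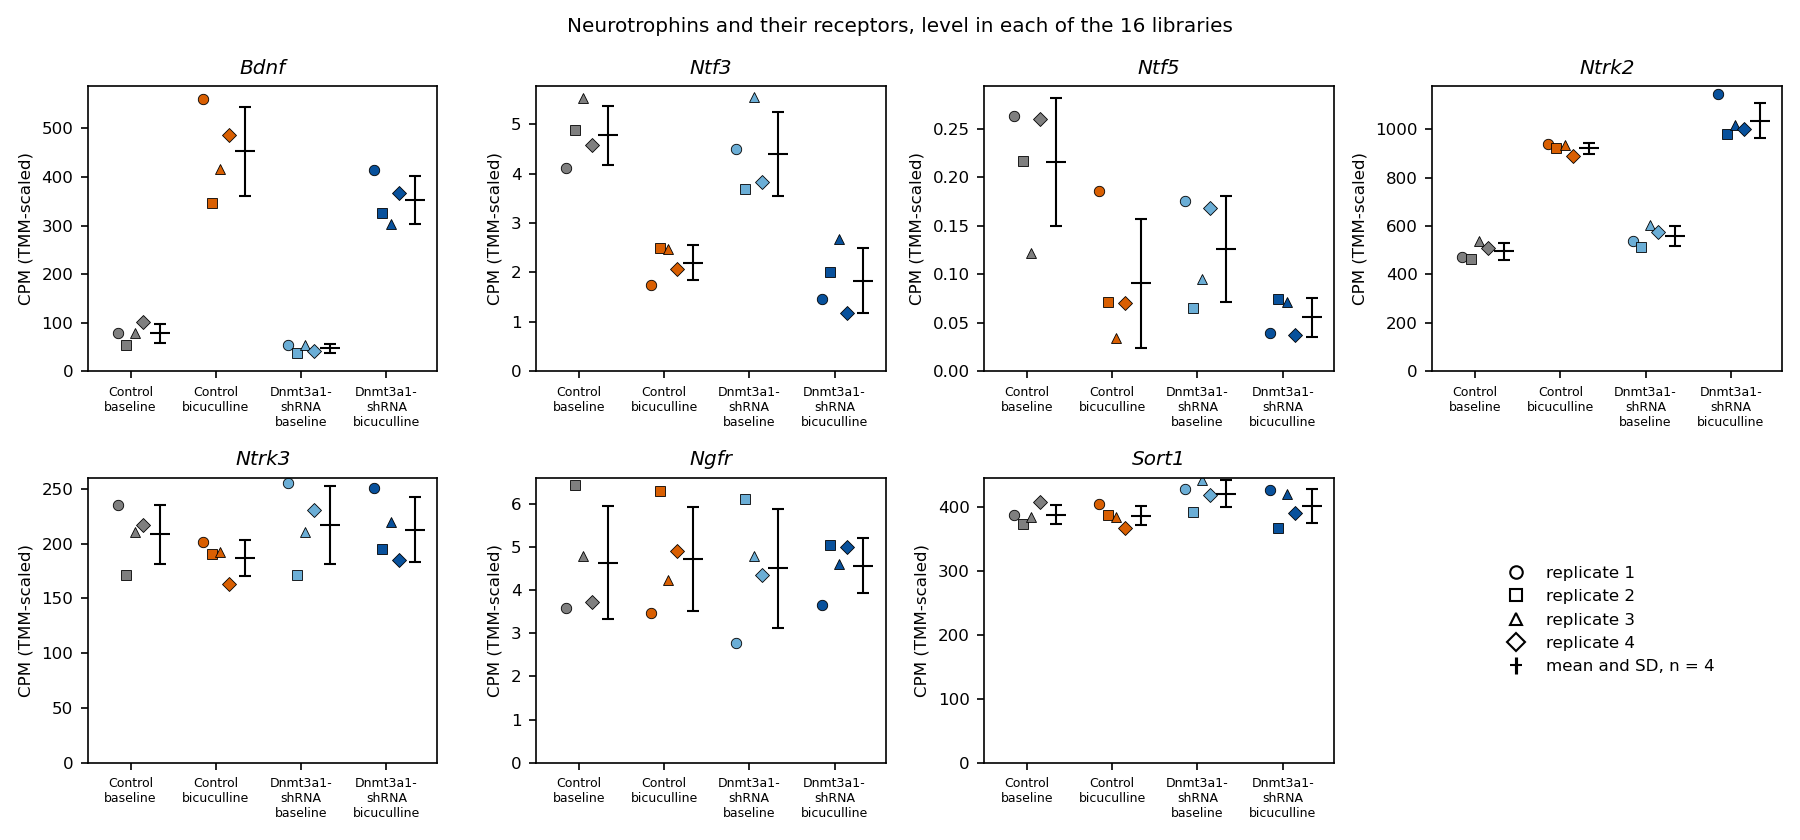
Level of each of the 7 genes in CPM (TMM-scaled, linear axes from 0) in the 16 libraries, with 1 symbol per replicate number and the mean and SD of 4 libraries beside each group. Bdnf and Ntrk2 were higher in all 8 bicuculline libraries than in any of the 8 baseline libraries, Ntf3 was lower, and Ntf5 stayed under 0.3 CPM.

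The first question was how blockade of inhibition for 4 h changed these genes. Bdnf and Ntrk2 rose, Ntf3 fell, and Ntrk3, Ngfr and Sort1 did not pass the test, in both shRNA backgrounds. A call required a log2 fold change beyond 0.5 in either direction and an adjusted p below 0.05. Of the 6 members tested, 2 were called higher and 1 lower in each background. Over all 17222 genes tested, 10.8% were called higher and 11.1% lower in Control-shRNA (21.9% in all), and 12.6% and 13.2% in Dnmt3a1-shRNA (25.8% in all). The same 3 members did not overlap between baseline and bicuculline in either background, against 39.7% and 40.4% of all genes. The comparisons used the fit to the 4 groups, and each knockdown comparison below shares its groups with these.

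Bdnf had 77.8, 53.5, 79.6 and 102 CPM in replicates 1 to 4 of Control baseline. In Control bicuculline it had 561, 346, 416 and 487 CPM. The lowest treated library lay far above the highest untreated one. The log2 fold change was 2.53 ± 0.19 (SE, adjusted p = 8.3e-09), a 5.79-fold rise, with a 95% interval of the log2 value from 2.14 to 2.93.

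With Dnmt3a1-shRNA, Bdnf had 54.9, 37.4, 53.2 and 41.8 CPM at baseline. It had 414, 327, 303 and 367 CPM with bicuculline. The groups were again far apart, with a log2 fold change of 2.91 ± 0.19 (adjusted p = 1.3e-09), or 7.53-fold. Between libraries of the same number the rise was 4.79- to 7.21-fold in Control-shRNA and 5.69- to 8.78-fold in Dnmt3a1-shRNA. In Dnmt3a1-shRNA the numbers were not taken as pairs for this comparison. The interaction, which tests the difference between both rises, was 0.38 ± 0.25 on the log2 scale (95% interval -0.15 to 0.91, unadjusted p = 0.15 and adjusted p = 0.99998 in edgeR), so a difference was not shown.

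Ntf3 (ENSMUSG00000049107.13, chr6:126101412-126166910, minus strand), the gene of NT-3, moved the other way. It had 4.11, 4.88, 5.54 and 4.57 CPM in Control baseline and 1.75, 2.49, 2.47 and 2.07 CPM in Control bicuculline. In Dnmt3a1-shRNA it had 4.50, 3.69, 5.56 and 3.84 CPM at baseline and 1.46, 2.0, 2.67 and 1.18 CPM with bicuculline. All 8 treated libraries lay below all 8 untreated ones. The gene fell by 1.12 ± 0.20 on the log2 scale in Control-shRNA (adjusted p = 2.5e-04) and by 1.26 ± 0.21 in Dnmt3a1-shRNA (adjusted p = 8.4e-05). These levels rest on 32 to 182 counts a library, against 1143 to 15077 for Bdnf.

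Ntf5 (ENSMUSG00000074121.3, chr7:45413695-45417179, plus strand) was the member that did not reach the filter on low counts. It had 4.02 to 8.10 estimated counts in Control baseline, 1 to 5 in Control bicuculline, 2 to 5 in Dnmt3a1-shRNA baseline and 1 to 2 in Dnmt3a1-shRNA bicuculline. The groups overlapped in every comparison. The bicuculline difference of log2(CPM + 1) was -0.16 in Control-shRNA (two-sided exact permutation test, p = 0.0571) and -0.092 in Dnmt3a1-shRNA (exact permutation test, p = 0.0857), where 4 libraries against 4 cannot go below 0.0286. It was lower in 4 of 4 libraries of the same number in Control-shRNA, at 0.27 to 0.71 of the baseline CPM. In Dnmt3a1-shRNA, where the numbers were not taken as pairs, it was lower in 3 of 4. With counts this low neither difference passed the test.

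Among the receptors only Ntrk2 was called. Ntrk2 (ENSMUSG00000055254.15, chr13:58806569-59133970, plus strand), which encodes TrkB, had 474, 462, 538 and 508 CPM in Control baseline and 939, 922, 935 and 889 CPM in Control bicuculline. With Dnmt3a1-shRNA it had 539, 513, 606 and 576 CPM at baseline and 1145, 980, 1017 and 1002 CPM with bicuculline. The treated libraries were all above the untreated ones. The log2 fold change was 0.89 ± 0.067 in each background (adjusted p = 1.1e-08 and 8.6e-09), or 1.86- and 1.85-fold, so that both calls ended at a log2 fold threshold of 1, and the interaction was -0.0026 ± 0.094 (95% interval -0.20 to 0.20).

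Ntrk3 (ENSMUSG00000059146.12, chr7:78175959-78738012, minus strand), which encodes TrkC, had 172 to 236 CPM in Control baseline and 163 to 202 CPM in Control bicuculline. In Dnmt3a1-shRNA it had 171 to 256 CPM and 185 to 251 CPM. The groups overlapped and the log2 fold changes were -0.16 ± 0.12 (adjusted p = 0.33) and -0.028 ± 0.12 (adjusted p = 0.88). The sign depended on the length correction: with offsets for the average transcript length the values were 0.19 (adjusted p = 0.089) and 0.26 (adjusted p = 0.020), neither past the fold threshold. Replicate 1 had the highest level in 4 of 4 groups.

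Ngfr (ENSMUSG00000000120.6, chr11:95568818-95587735, minus strand), the gene of the p75 receptor, stayed between 2.78 and 6.42 CPM, with log2 fold changes of 0.027 ± 0.23 (95% interval -0.46 to 0.51) and 0.017 ± 0.23 (-0.47 to 0.51). The spread ran with the replicate number rather than the group, since replicate 1 was lowest and replicate 2 highest in 4 of 4 groups. The summed fibroblast and vessel markers were also lowest in replicate 1, at 37.0 to 49.0 TPM, but highest in replicate 3, at 74.8 to 91.6 TPM. The oligodendrocyte-lineage markers were highest in replicate 2 in 3 of 4 groups, at 177 to 184 TPM, with replicate 3 highest in Dnmt3a1-shRNA bicuculline (188 against 151 TPM). They were lowest in replicate 1 in 3 of 4 groups, at 81.2 to 93.1 TPM, with replicate 4 lowest in Control baseline (86.7 against 103.2 TPM). Most of the oligodendrocyte-lineage sum came from Olig1, at group means of 97.3 to 108 TPM. Pdgfra had at most 0.67 and Sox10 at most 0.019 TPM as group means. The part of either marker group in the Ngfr level was not tested.

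Sort1 (ENSMUSG00000068747.14, chr3:108284082-108361511, plus strand) varied least, from 367 to 442 CPM. Its log2 fold changes were -0.0063 ± 0.058 (95% interval -0.13 to 0.12) and -0.067 ± 0.058 (-0.19 to 0.056). Scaled by library size alone it was lower with bicuculline, by -0.17 (adjusted p = 0.028) and -0.22 (adjusted p = 0.0048), while the median gene then moved by -0.15 and -0.16. That shift is the difference between the scalings, and relative to it Sort1 moved by little.

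**Figure D2:**
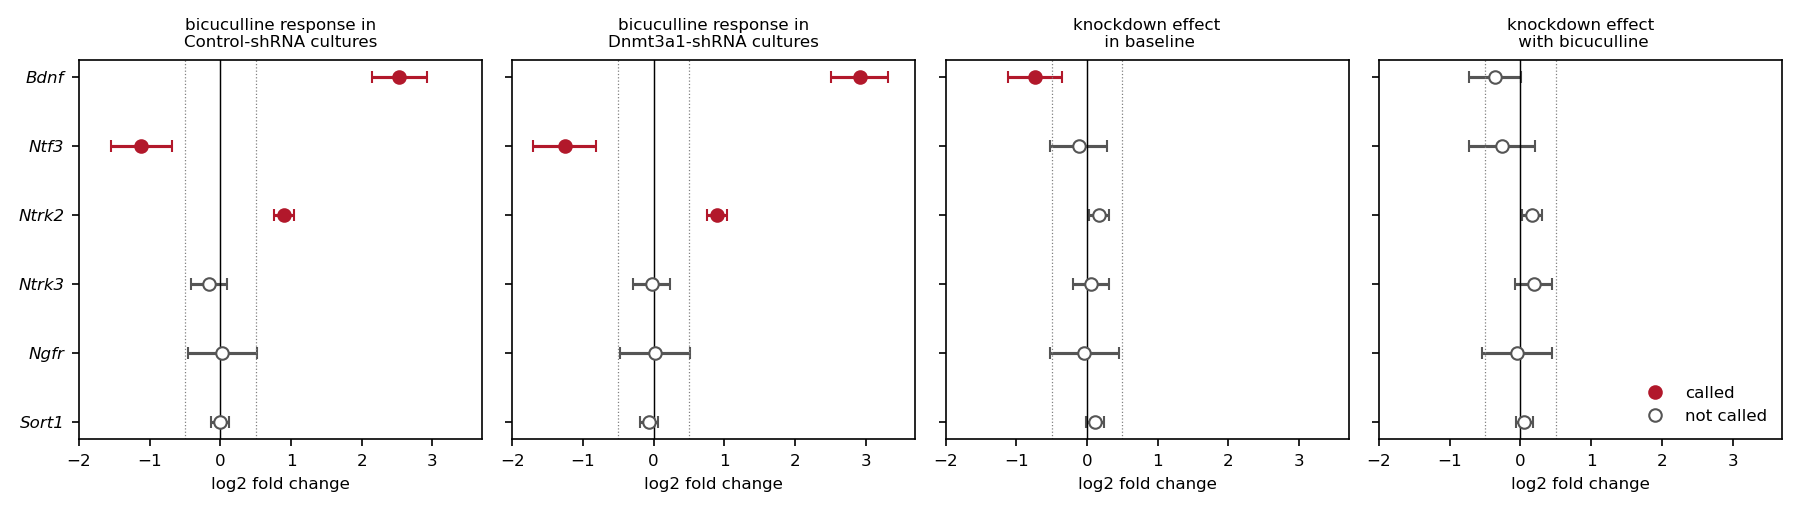
Log2 fold change of the 6 tested genes with its 95% interval in the 4 comparisons, with filled red symbols for called genes and dotted lines at the fold threshold of 0.5. Bdnf, Ntrk2 and Ntf3 were called for bicuculline in both backgrounds, and Bdnf alone for the knockdown, at baseline.

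The next question was what the Dnmt3a1 hairpin did to the same genes. At baseline it lowered Bdnf, and no other member passed. Of the 6 tested members 1 was called, against 5.83% of all genes tested (1.76% higher and 4.07% lower). No member was free of overlap between the groups, against 19.9% of all genes. The mean of Bdnf was 78.2 ± 19.7 CPM in Control baseline and 46.8 ± 8.59 CPM in Dnmt3a1-shRNA baseline (SD, n = 4). The highest knockdown library (54.9 CPM) just exceeded the lowest control library (53.5 CPM). In the main fit, which leaves the replicate number out, the log2 fold change was -0.74 ± 0.18 (95% interval -1.12 to -0.36, adjusted p = 0.0090). Blocked on replicate number, edgeR gave -0.73 (adjusted p = 2.1e-04). Between libraries of the same number Bdnf was lower by 1.42- to 2.44-fold in 4 of 4. Leaving out 1 library at a time from the main fit kept the call in all 16 fits, with values from -0.88 to -0.59 and adjusted p from 0.0019 to 0.039. The call ended at a log2 fold threshold of 1.

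With bicuculline the difference in Bdnf was not called. Means were 453 ± 92.4 CPM in Control-shRNA and 352 ± 48.7 CPM in Dnmt3a1-shRNA, the groups overlapped, and the log2 fold change was -0.36 ± 0.17 (95% interval -0.73 to 0.0076, adjusted p = 0.17). Bdnf was lower in 4 of 4 libraries of the same number, by 1.06- to 1.38-fold, though the numbers were not taken as pairs here. In this comparison 0 of the 6 tested members were called, against 5.89% of all genes. The interaction given above did not separate the baseline from the bicuculline difference, and edgeR called 0 of 17222 genes (0%) for it. At an unadjusted p under 0.05 there were 852 genes, close to the share of 0.05 that chance alone would give. DESeq2 called 17 genes and voom with limma 0, and in neither was Bdnf among them.

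Ntrk2 was not called for the hairpin in either condition. The log2 fold change was 0.17 ± 0.067 at baseline (95% interval 0.031 to 0.31, adjusted p = 0.092) and 0.17 ± 0.067 with bicuculline (0.029 to 0.31, adjusted p = 0.090). Blocked on replicate number, the adjusted p at baseline was 0.026, with the log2 value still under the fold threshold. The level was above that of the control in 4 of 4 libraries of the same number each time, by 1.11- to 1.14-fold at baseline and 1.06- to 1.22-fold with bicuculline. In the latter the numbers were not taken as pairs. With bicuculline the groups did not overlap, which made Ntrk2 1 of 6 members, against 20.9% of all genes. TrkB is also made by astrocytes in a form without the kinase. Of the 8 astrocyte markers 1 was called higher with the hairpin in each condition, where 5.83 and 5.89% of all genes were called. The median log2 fold change of these markers was 0.40 at baseline and 0.42 with bicuculline. The summed TPM of these markers was 257 to 420 and 257 to 508 at baseline, and 213 to 390 and 292 to 480 with bicuculline, in Control-shRNA and Dnmt3a1-shRNA. Their part in the Ntrk2 level was not tested.

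Ntf3, Ntrk3, Ngfr and Sort1 had knockdown differences between -0.26 and 0.19 on the log2 scale, with adjusted p from 0.20 to 0.94. Ntf5 differed by -0.11 at baseline and -0.045 with bicuculline on the log2(CPM + 1) scale (exact permutation test, p = 0.114 and 0.629). On log2(TPM + 1) it differed by -0.17 and -0.091 (exact permutation test, p = 0.0857 and 0.0571). At baseline it was lower in 4 of 4 libraries of the same number, at 0.303 to 0.783 of the control CPM. With bicuculline, where the numbers were not taken as pairs, it was lower in 2 of 4.

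The tables hold sums per gene, but estimated counts and TPM together carry a trace of which transcripts were counted, because their ratio follows the average length of a gene's transcripts. This average, weighted by the TPM of each transcript, was set on a scale of nucleotides with 679 genes of a single transcript, for which it returned the annotated length with a median error of 0.11 to 0.29% a library. Ngfr, whose only transcript has 3446 nt, came out at 3448 to 3455 nt. Tested by limma over 12296 genes, the average became longer with bicuculline in 0.683% and shorter in 2.70% of genes in Control-shRNA, and longer in 1.02% and shorter in 4.14% in Dnmt3a1-shRNA. Bdnf was called longer and Ntrk2 shorter in both backgrounds. Ntf3, Ntrk3, Ngfr and Sort1 were not called, and Ntf5 was too rare for the test.

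All 11 annotated transcripts of Bdnf are coding and have 3707 to 4266 nt. The average was 4067, 4039, 4075 and 4081 nt in Control baseline and 4204, 4191, 4202 and 4197 nt in Control bicuculline. In Dnmt3a1-shRNA it was 4061, 4099, 4119 and 4071 nt at baseline and 4225, 4220, 4227 and 4226 nt with bicuculline. All 8 treated libraries had a longer average than all 8 untreated ones. The log2 change was 0.051 ± 0.0055 in Control-shRNA (adjusted p = 2.1e-04) and 0.050 ± 0.0055 in Dnmt3a1-shRNA (adjusted p = 1.5e-04).

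Only Bdnf-201, which begins at the upstream start shown above, is longer than 4125 nt, so an average above that length by more than the error of the scale needs some of it. The calibration error was larger in bicuculline libraries, where Ngfr read 3452 to 3455 nt, so each average was moved down for the lower limit of a share and up for the upper one by the median error of its library. The limits are approximate, since a single gene can be off by more than the median. On this reckoning Bdnf-201 made up between 40.5 to 48.6% and 88.2 to 90.8% of the Bdnf transcripts in the Control bicuculline libraries, and between 58.5 to 65.2% and 93.9 to 94.8% with Dnmt3a1-shRNA. At baseline the upper limits were 60.2 to 67.8% and 64.2 to 74.8%, with no lower limit above 0. These ranges were worked out after the length values had been seen. They hold as far as the annotation lists the transcripts that were present, and the Bdnf transcripts with different first exons share most of their sequence, which makes their estimates less certain than the sum.

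With bicuculline the average of Bdnf was longer in every Dnmt3a1-shRNA library than in every Control-shRNA library (4220 to 4227 nt against 4191 to 4204 nt). The difference was 0.0096 ± 0.0055 on the log2 scale and did not pass (adjusted p = 0.78). Over all genes the hairpin changed the average in 0.130% at baseline and 0.277% with bicuculline, and 0.00813% passed for the interaction, with no member among them.

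**Figure D3:**
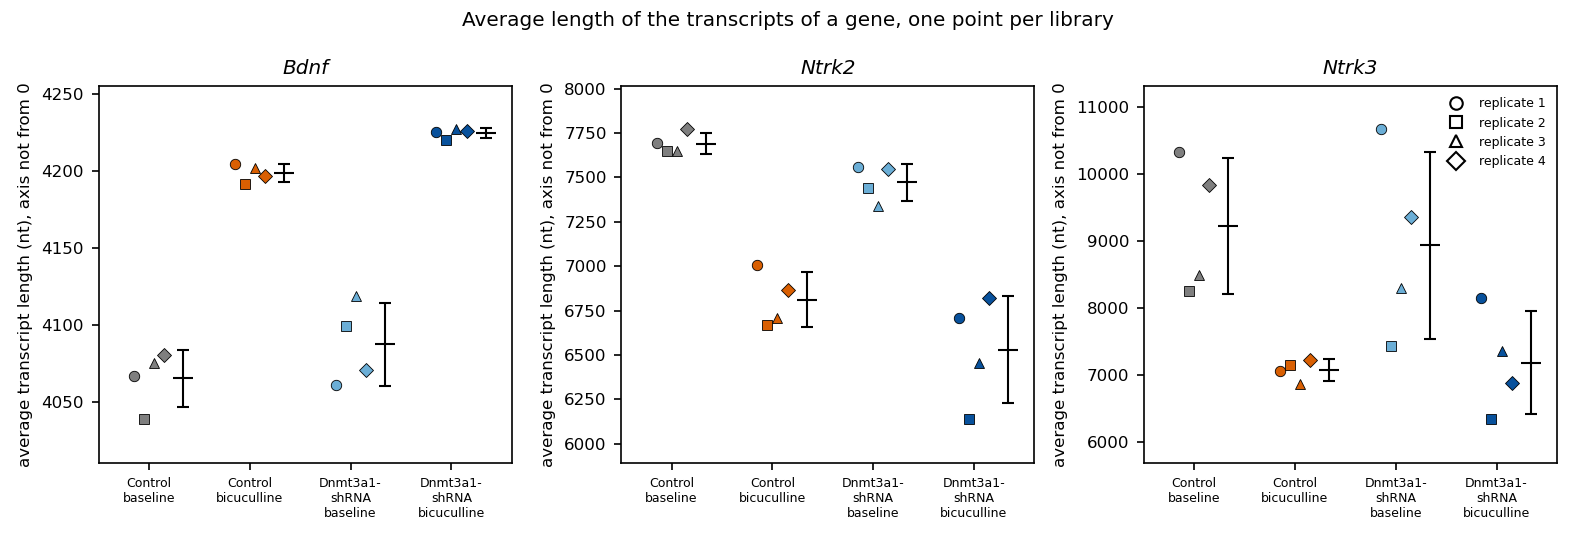
Average length in nt of the transcripts of Bdnf, Ntrk2 and Ntrk3, with 1 point per library, symbols for replicate numbers, and the mean and SD of 4 libraries (the axes do not start at 0). Bdnf lay at 4039 to 4119 nt in baseline and 4191 to 4227 nt in bicuculline libraries, and Ntrk2 fell from 7339 to 7769 nt to 6138 to 7004 nt.

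The Ntrk2 transcripts shifted towards shorter forms. The average was 7694, 7648, 7648 and 7769 nt in Control baseline and 7004, 6667, 6709 and 6866 nt in Control bicuculline. In Dnmt3a1-shRNA it was 7557, 7441, 7339 and 7547 nt at baseline and 6708, 6138, 6456 and 6820 nt with bicuculline. The groups did not overlap. The average fell by 0.18 ± 0.027 on the log2 scale in Control-shRNA (adjusted p = 0.0025) and by 0.20 ± 0.027 in Dnmt3a1-shRNA (adjusted p = 6.2e-04). Ntrk2-201 is the longest form, at 8744 nt, and carries the coding sequence of 2463 nt for the receptor with its kinase. Ntrk2-202, at 6846 nt, carries the coding sequence of 1428 nt for a truncated receptor. Another transcript has the longer coding sequence in only 4706 nt, so the average length does not tell kinase forms from truncated ones. The share of Ntrk2-201, reckoned as for Bdnf-201, had lower limits of 41.7 to 48.1% in Control baseline and 25.4 to 37.0% in Dnmt3a1-shRNA baseline. With bicuculline the lower limit was 0 to 7.41% and 0%, and the upper limits of 69.1 to 79.5% were below those at baseline of 83.4 to 88.5%. Because the average was shorter, the rise of Ntrk2 was larger when counts were offset for length, at 1.03 and 1.06 on the log2 scale.

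Ntrk3 has one transcript of 19703 nt, Ntrk3-201, and no other above 4386 nt. Its average length was 10333, 8248, 8493 and 9834 nt in Control baseline and 7060, 7155, 6858 and 7226 nt in Control bicuculline. In Dnmt3a1-shRNA it was 10670, 7428, 8300 and 9365 nt at baseline and 8157, 6337, 7364 and 6885 nt with bicuculline, where the groups overlapped. The log2 changes of -0.38 ± 0.11 (adjusted p = 0.091) and -0.32 ± 0.11 (adjusted p = 0.14) did not pass. Blocked on replicate number, the change in Control-shRNA passed (adjusted p = 0.023). Replicates 1 and 4 had the longest averages at baseline in both backgrounds. The share of Ntrk3-201, reckoned in the same way, lay between about 25.2 and 52.0% in Control baseline and between 16.04 and 36.0% in Control bicuculline, from the lowest lower to the highest upper limit.

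For a view of the surrounding pathway, genes of 8 lists were counted in the same fit. The lists were chosen with earlier results of these data known, so a share above that of all genes may reflect the choice. Among 18 genes for the processing and release of neurotrophins, 17 were tested, of which 7 rose with bicuculline in each background and 0 fell (41.2%, against 21.9 and 25.8% of all genes, with a median log2 fold change 0.33 and 0.30). In Control-shRNA the largest rises were those of Pcsk1, a prohormone convertase, at 2.93 ± 0.22 (adjusted p = 9.3e-09), Plat, the tissue plasminogen activator, at 2.81 ± 0.28 (adjusted p = 3.3e-07), and Syt4, a synaptotagmin of dense-core vesicles, at 2.22 ± 0.15 (adjusted p = 2.4e-09). In Dnmt3a1-shRNA these 3 genes rose by 3.48, 2.69 and 2.14. The hairpin lowered 2 of the 17 in each condition (11.8%, against 5.83 and 5.89% of all genes), among them Syt6, a further synaptotagmin, by -0.52 at baseline (adjusted p = 0.0083) and -0.56 with bicuculline (adjusted p = 0.0050).

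The list of 12 genes that BDNF is known to induce in neurons rose as a whole with bicuculline, 12 of 12 in each background. That share of the list was 100%, against 21.9 and 25.8% of all genes, with medians of 3.08 and 3.22. Most of its members are also immediate early genes of neuronal activity itself, so the list does not separate BDNF signalling from firing. Arc, a synaptic regulator, went from 14.8 ± 3.67 to 740 ± 228 CPM in Control-shRNA, a log2 fold change of 5.64 ± 0.27 (adjusted p = 3.1e-11). The transcription factor genes Egr2 and Egr1 rose by 5.38 and 4.61 in Control-shRNA, and in Dnmt3a1-shRNA Arc rose by 6.08, Nr4a1, a nuclear receptor, by 4.95 and Egr2 by 4.79. The hairpin lowered 2 of the 12 at baseline (16.7%, against 5.83% of all genes), both neuropeptide genes. Vgf was lower by -1.20 ± 0.20 (adjusted p = 4.2e-04) and Npy by -1.05 ± 0.18 (adjusted p = 5.5e-04). With bicuculline 1 of the 12 was lower and 1 higher with the hairpin (16.7%, against 5.89% of all genes). Npy was lower there by -0.78 (adjusted p = 0.0050). In the paper, qRT-PCR of stimulated cultures gave no significant effect on Npy with 1 of its 2 hairpins. Homer1, a postsynaptic scaffold gene, was higher by 0.63 with bicuculline (adjusted p = 0.037, overlapping groups, lost in a fit of those groups alone at 0.091 and without any 1 of 6 libraries, replicates 2, 3 and 4 of Control bicuculline or 1, 2 and 4 of Dnmt3a1-shRNA bicuculline, at 0.071 to 0.12).

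Some markers of GABAergic neurons moved beside these genes. Of 8 such markers 5 were called higher with bicuculline in each background (median 0.59 and 0.69), against 10.8 and 12.6% of all genes. With the hairpin 2 were called lower at baseline (median -0.21), against 4.07% of all genes, and 0 were called with bicuculline (median -0.14). The 7 excitatory markers summed to 1599 to 1702 TPM in Control baseline, 1220 to 1439 in Control bicuculline, 1358 to 1559 in Dnmt3a1-shRNA baseline and 1052 to 1368 in Dnmt3a1-shRNA bicuculline, with 2 called higher and 1 lower with bicuculline and 0 with the hairpin. The summed TPM of the GABAergic markers was 2399 to 2797 in Control baseline, 2923 to 4044 in Control bicuculline, 1618 to 2218 in Dnmt3a1-shRNA baseline and 2534 to 3175 in Dnmt3a1-shRNA bicuculline. Most of each sum came from Sst alone, at group means of 1550, 2074, 1006 and 1651 TPM in the same order. Npy is made mainly by GABAergic neurons, and the part of these markers in the level of Npy, or in that of Bdnf, was not tested.

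Of 20 regulators of Bdnf transcription, 4 rose and 4 fell with bicuculline in Control-shRNA, and 4 rose and 6 fell in Dnmt3a1-shRNA, or 40 and 50% against 21.9 and 25.8% of all genes. Npas4, an activity-induced transcription factor that acts on Bdnf promoters, went from 10.4 ± 4.19 to 1662 ± 234 CPM in Control-shRNA (log2 fold change 7.32 ± 0.26, adjusted p = 1.1e-12) and rose by 6.63 in Dnmt3a1-shRNA. Atf4, a stress-responsive factor, rose by 1.10 and 1.34, and Carf, a calcium-response factor, fell by 1.41 and 1.28 on the log2 scale. With the hairpin 1 of the 20 was lower in each condition (5%), close to the shares of all genes.

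Of 46 genes for Trk adaptors and signalling, 4 rose and 3 fell with bicuculline in Control-shRNA (15.2%) and 6 rose and 3 fell in Dnmt3a1-shRNA (19.6%), against 21.9 and 25.8% of all genes. Irs2, an insulin receptor substrate, rose by 1.54 and 1.68, Crkl, an adaptor, by 0.88 and 0.96, the kinase gene Rps6ka2 by 0.92 in Control-shRNA and Rps6ka3 by 0.98 in Dnmt3a1-shRNA. With the hairpin 1 of the 46 was called at baseline (2.17%) and 2 with bicuculline (4.35%), against 5.83 and 5.89% of all genes. Nras, a Ras GTPase, was higher with the hairpin by 0.59 at baseline (adjusted p = 2.9e-05) and 0.72 with bicuculline (adjusted p = 3.3e-06), and Gab1, a docking protein gene, by 0.63 with bicuculline (adjusted p = 0.011), which was lost on log2(TPM + 1) (adjusted p = 0.11).

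On the p75 side, the 16 genes for adaptors and processing of p75 had 1 call with bicuculline in Control-shRNA and 2 in Dnmt3a1-shRNA, all lower (6.25 and 12.5%, against 21.9 and 25.8% of all genes). Adam10, a protease that sheds cell-surface proteins, fell by 0.62 and 0.82 on the log2 scale, and Psen2, a gamma-secretase gene, fell by 0.53 in Dnmt3a1-shRNA. With the hairpin 0 of the 16 were called at baseline (0%) and 1 with bicuculline (6.25%), against 5.83 and 5.89% of all genes. Arhgdia, whose product binds p75, was lower with the hairpin in bicuculline, at -0.60 ± 0.063 (adjusted p = 4.9e-06). At baseline it had -0.48 ± 0.063 (adjusted p = 5.9e-05), just under the fold threshold, and the groups did not overlap in either condition. Of 11 tested genes of the sortilin family and p75 coreceptors, a list that holds Sort1, 1 rose and 1 fell with bicuculline in each background. That share was 18.2%, against 21.9 and 25.8% of all genes. Rtn4r, the Nogo receptor gene, fell by 1.08 and 1.38 on the log2 scale. With the hairpin 1 of the 11 was called in each condition (9.09%, against 5.83 and 5.89% of all genes). Sorl1, a sorting receptor related to sortilin, was lower with the hairpin by -0.71 at baseline (adjusted p = 5.1e-04) and -0.56 with bicuculline (adjusted p = 0.0035), where Sort1 itself had 0.12 and 0.055 and was not called.

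In the GDNF family, 8 of 11 genes were tested. With bicuculline 2 rose in Control-shRNA, and 1 rose and 1 fell in Dnmt3a1-shRNA (25% each, against 21.9 and 25.8% of all genes). The hairpin raised 1 of the 8 at baseline (12.5%, against 5.83%), and 0 were called with bicuculline (0%, against 5.89%). Gfra1, the GDNF co-receptor gene, rose with bicuculline by 1.21 and 1.38. Gdnf, at 0.190 and 0.490 CPM with overlapping groups, was called in Control-shRNA at 1.36 (adjusted p = 0.031), which voom did not keep (adjusted p = 0.11) and which ended without replicate 2, 3 or 4 of Control baseline or replicate 2 or 3 of Control bicuculline (0.052 to 0.13). Gfra2 fell by 0.71 on the log2 scale with bicuculline in Dnmt3a1-shRNA and was higher with the hairpin at baseline by 0.64 (adjusted p = 0.0015). Of 28 genes for other secreted trophic factors and their receptors, 9 rose and 1 fell with bicuculline in Control-shRNA (35.7%, against 21.9% of all genes). In Dnmt3a1-shRNA 9 rose and 0 fell (32.1%, against 25.8%). The fibroblast growth factor receptor genes Fgfr2 and Fgfr1 rose by 2.49 and 1.41 in Control-shRNA and 2.497 and 1.56 in Dnmt3a1-shRNA, and Erbb3, with group means under 0.5 CPM, by 2.06 and 1.58. The Erbb3 calls ended on log2(TPM + 1), a scale that compresses low values (adjusted p = 0.0502 and 0.110). The hairpin raised 3 of the 28 at baseline (10.7%, against 5.83% of all genes) and 4 with bicuculline (14.3%, against 5.89%). At baseline these were Hbegf (0.73), Fgfr2 (0.55) and Igf1r (0.51, with overlapping groups). Fgfr2 was not called on library sizes, with length offsets or on either TPM scale, at 0.40 to 0.498. Igf1r was not called in the same settings (adjusted p = 0.063 to 0.28). Nor was Igf1r called without replicate 2 or 4 of Control baseline or 1 or 4 of Dnmt3a1-shRNA baseline (adjusted p = 0.063 to 0.071). With bicuculline the largest were Igf1r (0.73), Nrg1 (0.60) and Fgfr2 (0.56, and 0.48 on library sizes, not called). This Igf1r call was lost on log2(TPM + 1) (adjusted p = 0.051).

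**Figure D4:**
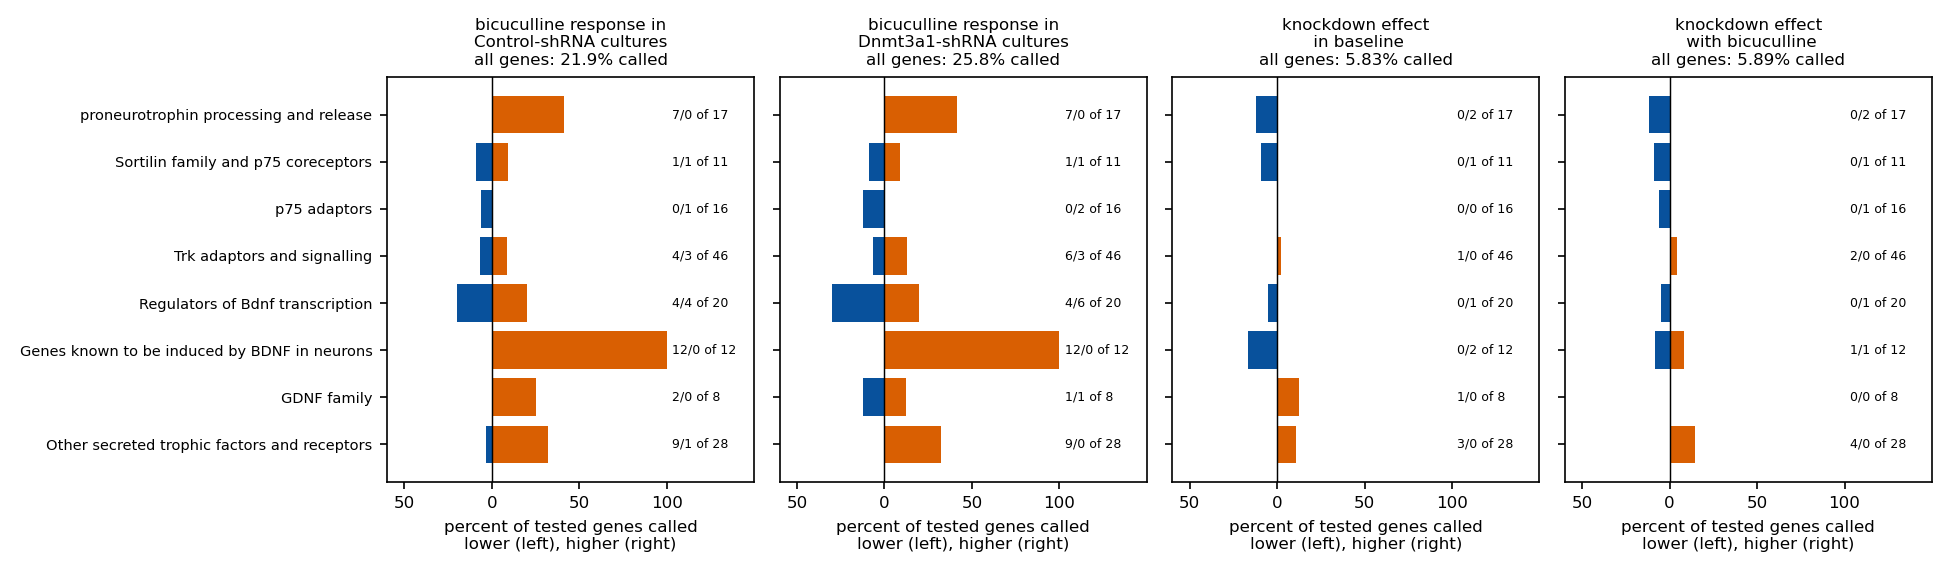
Percent of the tested genes of each of 8 lists called higher (orange, right) and lower (blue, left) in the 4 comparisons, with the counts higher/lower of tested genes at the right and the percent of all genes called above each panel. The 12 genes known to be induced by BDNF were all called higher with bicuculline, while the 46 Trk signalling genes had 15.2 and 19.6% called.

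The genes whose levels followed each member most closely were found by Pearson's r of log2 CPM over the 16 libraries, among genes of at least 1 CPM. These values mostly restate the group pattern, since libraries share treatment and scaling. For Bdnf they were Fbxo33 (r = 0.992), Pam, an amidating enzyme of neuropeptides (0.992), and Crem, a cAMP-responsive transcription factor (0.991). After the group means were taken out, Bdnf ran most closely with Alkal2, a ligand of the receptor ALK (0.943), Grsf1 (0.933) and Zfp24 (0.932). Ntrk2 was closest to Mamld1, Tmem47 and Frmd6 (all 0.989), and Ntf3 to Acp2 (0.979), Stum (0.974) and Dnajc17 (0.973). The members that were not called had looser companions: Ntrk3 with Dgkh (0.940), Nf1 (0.937) and Ank2 (0.929), Ngfr with Cirbp (0.876), Npepl1 (0.870) and Eef2kmt (0.844), and Sort1 with Scn8a (0.823), Mapk1ip1l (0.822) and Cask (0.819).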

How the data were processed

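RNA of 16 libraries, 4 in each of 4 groups taken from the sample titles, was analysed. The authors sequenced libraries made by BGISeq-500 protocols, trimmed reads with Trim Galore (0.6.4 in the submitters' processing notes) and quantified them with kallisto (0.4.6 in those notes) on GRCm38.p6. They deposited, per library, estimated counts per gene (sums over transcripts, not scaled) and TPM values, which the authors scaled for transcript length and to a total of 1000000. Precision is limited by the spread between the 4 libraries of a group, which exceeded counting noise. For rare genes it is also limited by the 28912697 to 29586355 estimated counts a library. The tables hold no transcript counts, and whether quantification used strand is not given in the sources used here, so antisense partners of Bdnf, Ntrk2, Ntrk3 and Sort1 may share reads.

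Of the 55385 identifiers, 55144 matched GENCODE release 21 of the mouse (GRCm38). Rounded estimated counts entered edgeR 4.0.16 under R 4.3.3 (TMM, edgeR's filter on low counts, 1 quasi-likelihood fit of the 4 groups, 17222 genes, Benjamini-Hochberg adjustment over all of them). The 7 members and the gene lists were chosen with earlier results of these data known. CPM values are scaled by TMM. Average transcript length (count/TPM) was tested with limma 3.58.1 on log2 values, centred per library, in 12296 genes of at least 1 TPM and 20 counts in every library. Ntf5, under the filter, was tested by exact permutation. Alternatives were voom, DESeq2 1.42.0, other scalings, filters, length offsets, log2(TPM + 1) and log2(TPM + 0.1), a fit restricted to the compared groups, other fold thresholds, the replicate number as a block, and each library left out. The fits were tested on simulated data.

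The titles give all groups the replicate numbers 1 to 4. After group means were removed, libraries that share a number correlated over 17222 genes. The correlation r was 0.142 to 0.221 in Control-shRNA (bicuculline against baseline) and 0.204 to 0.355 at baseline (one shRNA against the other), above 0.1 for every number. In the other comparisons r was 0.0631 to 0.337 (Dnmt3a1-shRNA, baseline against bicuculline) and 0.0667 to 0.388 (with bicuculline). There only number 4 fell under 0.1. The numbers were taken as pairs only in the first 2, a cut on r that does not show the others to be unpaired. Ngfr followed the numbers in all 4 groups. The main fit did not use the pairs, and the fit with the replicate block did. Libraries within a group all differed by more than counting noise (chi-square over its degrees of freedom, 7.92 to 44.7).

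Named beside the members are Dnmt3a, of each list, in each comparison, every called gene where at most 3 were called and otherwise the 3 with the largest change, and for each tested member the 3 genes of highest r (for Bdnf also on deviations from group means). Some genes that this rule selects are not reported here. Marker genes, transcripts and the promoters shown were named after their values were seen.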

Additional observations from a re-analysis of the deposited data

Results flagged for a closer look

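Of 192 groups of 4 libraries examined for a value far from the others, 10 stood out by Dixon's criterion (a gap to the nearest library that takes up most of the group's range), and chance flags about 1 in 20 groups. None was a level or a transcript length of Bdnf, Ntf3, Ntf5, Ntrk2, Ntrk3, Ngfr or Sort1. Replicate 1 of Control bicuculline was the highest for 2 genes. It had 1079.75 CPM of Arc against 590 to 652 in the other libraries and 1546.35 CPM of Egr1 against 869 to 964. Replicate 2 of Dnmt3a1-shRNA baseline was the lowest for 4 genes. It had 11.8363 CPM of Carf against 14.3 to 14.5, 35.8359 CPM of Pcsk1 against 50.3 to 51.1, 47.2471 CPM of Rps6ka3 against 58.9 to 59.7, and 350.184 CPM of Syt4 against 396 to 401. In Control baseline, replicate 3 had 61.0886 CPM of Egr1 against 35.7 to 39.5, and replicate 2 had 16.7622 CPM of Psen2 against 15.2 to 15.5 and 392.477 CPM of Vgf against 489 to 508. Replicate 3 of Dnmt3a1-shRNA bicuculline had 0.178206 CPM of Gdnf against 0.515 to 0.518.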

How the results depend on the processing

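The calls of Bdnf, Ntf3 and Ntrk2 with bicuculline, the baseline call of Bdnf with the hairpin and the length calls of Bdnf and Ntrk2 held in each of the 16 fits that left out 1 library. With 1 library left out, 3619 to 3837 and 4271 to 4560 genes were called for bicuculline in Control-shRNA and Dnmt3a1-shRNA, 827 to 1122 and 864 to 1152 for the knockdown at baseline and with bicuculline, and 0 to 1 for the interaction (1 without replicate 1 of Control bicuculline). Without a fold threshold the first 4 counts were 7131, 7919, 2809 and 3046, and at a log2 threshold of 1 they were 1378, 1681, 175 and 185. The interaction had 17 calls with DESeq2, 3 without a filter on low counts and 3 with the replicate block. The replicate block gave 3986, 4612, 1284 and 1338 calls in the other comparisons. For the length of the members it gave 6 calls against 4, since Ntrk3 passed in both backgrounds (adjusted p = 0.023 and 0.039). With bicuculline, where the numbers were not taken as pairs, the replicate block gave Bdnf an adjusted p of 0.028 (log2 fold change -0.34) and Ntrk2 one of 0.027 (0.17) for the hairpin, both under the fold threshold, and it changed no other call of a member.

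Scaled by library size alone, the share of higher genes among the called was 31.0, 32.8, 14.2 and 19.2%, and on log2(TPM + 1) it was 28.6, 30.6, 9.11 and 14.5%, against 49.2, 48.9, 30.2 and 33.9% with TMM.

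Differences that were not called changed sign in places. Sort1 with bicuculline in Control-shRNA was 0.0077 in DESeq2 and 0.010 with its size factors (-0.033 to 0.018 with 1 library left out). The Ntrk2 interaction was 0.0018 and 0.0069 there, 0.0040 on library sizes, 0.024 with length offsets, 0.00923 with a minimum of 10 counts, and 0.031 and 0.031 on log2(TPM + 1) and log2(TPM + 0.1) (-0.055 to 0.039 with 1 library left out). On library sizes, with length offsets and on the same TPM scales, Ngfr with bicuculline was -0.14, -0.012, -0.13 and -0.17 in Control-shRNA and -0.14, -0.015, -0.11 and -0.13 in Dnmt3a1-shRNA. Ntrk3 with bicuculline was 0.19 with length offsets and 0.024 and 0.024 on the TPM scales in Control-shRNA, and 0.26, 0.099 and 0.10 in Dnmt3a1-shRNA. On library sizes and the TPM scales, Ntrk3 with the hairpin at baseline was -0.027, -0.015 and -0.015, and Sort1 with the hairpin in bicuculline was -0.015, -0.048 and -0.049. With 1 library left out, Ngfr ranged from -0.14 to 0.23 and -0.15 to 0.20 for bicuculline and from -0.22 to 0.16 and -0.17 to 0.12 for the knockdown, Ntrk3 from -0.13 to 0.060 (bicuculline in Dnmt3a1-shRNA) and -0.033 to 0.16 (knockdown at baseline), and the Ntf3 interaction from -0.38 to 0.020. The cause was not tested.

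Near the fold threshold, calls of pathway genes also ended without 1 library. Without replicate 1 of Control bicuculline, Fgfr2, Sorl1 and Gab1 with the hairpin in bicuculline were 0.48, -0.48 and 0.50, and without replicate 2 of Dnmt3a1-shRNA bicuculline Sorl1 was -0.49. Syt6 was -0.44, -0.45 and -0.45 at baseline without replicate 4 of Control baseline and replicates 2 and 3 of Dnmt3a1-shRNA baseline, and -0.49 with bicuculline without replicate 3 of Dnmt3a1-shRNA bicuculline. Psen2 with bicuculline in Dnmt3a1-shRNA was -0.45 without replicate 2 of its baseline and -0.45 without replicate 1 of its bicuculline group. Other settings also ended calls. On log2(TPM + 1), Syt6, Nras and Gfra2 with the hairpin at baseline were -0.48, 0.49 and 0.48. Sorl1 with the hairpin in bicuculline was -0.49 on that scale and -0.45 with length offsets. Homer1 with the hairpin in bicuculline had adjusted p = 0.052 and 0.056 in the same 2 settings.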
